A study of Mus musculus with 3 samples.

Results

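The genes described here form the DNA damage response and repair module of the mouse, from the kinases that sense a lesion to the enzymes that mend it. The members were taken from a list of 38 gene names, of which 37 matched a gene in the GENCODE M21 annotation, out of 22028 protein-coding genes in all. The name Claspn matched no gene, while Clspn, the gene symbol for claspin, is a member of its own. A member was counted as carrying m6A when a predicted site lay inside its span on its strand, and each site was then placed on the transcript with the longest coding sequence (CDS).

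The sites come from miCLIP2 on poly(A)+ RNA of RAW264.7 cells, an established mouse macrophage line, left untreated and processed as 3 replicates. The series description calls the line human, whereas the organism label is mouse and all 19301 listed positions are an A in the mouse genome. The method crosslinks an m6A antibody to its RNA with UV light and finds the modified base from where reverse transcription stops. The authors pooled the replicates into 1 list of sites with a score from the m6Aboost classifier above 0.5, so a spread between replicates and a read depth behind a site are unknown here.

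The score says how firmly the model calls a position and does not measure how much of the RNA is methylated. All intervals are 95% Wilson intervals that cover counting error only, since sites of 1 transcript are not independent of each other. The list carries no RNA level, so for a gene without a site a low RNA level and a lack of methylation cannot be told apart.

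Cells answer DNA breaks and stalled replication forks through the kinases Atm, Atr and DNA-PK, which mark chromatin around the lesion, halt the cell cycle through checkpoint kinases and stabilise p53. Mediator proteins gathered at the mark steer the choice between end joining and homologous recombination, while separate enzyme sets deal with crosslinks, mismatches, bulky adducts and single-strand breaks. m6A is placed on mRNA by the Mettl3-Mettl14 complex, mostly at the motif DRACH (D is A, G or T, R is A or G, H is A, C or T), and is known to gather in long internal exons and in last exons near the stop codon.

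Of the 37 members, 18 held at least 1 site, a share of 48.6% (interval 33.4 to 64.1%), beside 23.1% of all protein-coding genes. At least 5 sites were found in 9 members, or 24.3% (13.4 to 40.1%), beside 6.95% of all protein-coding genes. The members were chosen with earlier results of these data known, which the intervals do not take into account. Their transcripts were long, with a median spliced length of 5153 nt against 2536 nt for the other coding genes. The parts of length and of RNA level in these shares were not tested. Within the members, the 18 with a site had a median of 4898.5 nt and the 19 without had 5224 nt. The other coding genes had medians of 3084.5 nt with a site and 2351 nt without, and none of these differences was tested.

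The 18 genes held 89 sites between them, with a median of 4 per gene against 3 for the other coding genes with a site. The median fell to 2 without the sites that also lie in the span of another gene, which are 6 sites counted for Atrip, so no order against the other genes can be read from it. The 5 members with most sites (Slx4, Msh6, Lig3, Trp53bp1 and Atrip) held 48 of the 89 sites, and the 9 members with at least 5 sites held 76. How far sites gather in a few genes elsewhere was not computed. Ercc6 also had 8 sites, as many as Atrip, and Atrip had only 2 without the 6 that lie in another gene, so its place rests on those 6. Another 5 members had a lone site. Per kb of spliced transcript the median was 0.777 sites, and the highest value was that of Msh6, with 2.59.

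Most of these sites lay in coding sequence. The CDS held 77 of the 89 sites, or 86.5% (77.9 to 92.1%), whereas it held 51.0% (50.3 to 51.7%) of the 19091 other sites that could be placed on a coding gene. The 3′ UTR held 5 member sites, or 5.62% (2.42 to 12.5%), against 43.5% (42.8 to 44.3%) of the others. The CDS share depended on the transcript used. With the longest span among transcripts passing the support filter of the authors, the CDS held 65.2% of member sites, below the interval given here. Placed on the longest spliced transcript instead, 13.5% of member sites were in the 3′ UTR. The other sites were not placed again in either way. The 5′ UTR held 0 member sites, and the 3′ UTR sites belonged to Lig3 and Mdm2. These shares are set side by side as a description, and the difference was not tested. They do not extend to repair genes at large, since in a wider list of 117 other repair and damage response genes the CDS held 55.9% (47.7 to 63.7%) of 145 sites and the 3′ UTR 42.8% (35.0 to 50.9%), close to the shares of the other sites.

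The exons that carried the sites were large. Of the 82 sites in an exon of the chosen transcript, 59 lay in an internal exon of at least 400 nt, a share of 72.0% (61.4 to 80.5%), against 19.3% (18.7 to 19.9%) of the other exonic sites. The last exon held 19, or 23.2% (15.4 to 33.4%), against 65.6% (64.9 to 66.3%). Within 200 nt of the stop codon lay 12 sites, or 14.6% (8.57 to 23.9%), against 32.4% (31.7 to 33.1%). With each member weighted equally, the share in internal exons of at least 400 nt was 60.2%, just below its interval of 61.4 to 80.5%. The share near the stop codon was then 22.9%, where the lone sites of Prkdc, Uimc1 and Trp53 count in full. The other genes were not weighted in this way. On the coding side of the stop codon the shares were close, with 13.4% (7.66 to 22.4%) of member sites and 12.1% (11.6 to 12.6%) of the others in the 200 nt before the stop codon.

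The architecture of the genes differed in the same direction as their sites. An internal exon of at least 400 nt was present in 21 of the 37 members, or 56.8% (40.9 to 71.3%), against 17.2% (16.7 to 17.7%) of the other coding genes. Split by site, it was present in 72.2% (49.1 to 87.5%) of the 18 members with a site and 42.1% (23.1 to 63.7%) of the 19 without. Of the other coding genes with a site, 23.9% (22.8 to 25.1%) had one. The longest internal exon had a median of 694 nt in members with a site and 359 nt in those without. Among members with a site in an internal exon, 12 of 14 had a site in the longest internal exon they possess. The same count was not made for the other coding genes. The internal exons that held a member site had a median length, counted per site, of 1343 nt, against 699 nt for the other sites. That value rests on the large exons of Slx4 and Msh6, since leaving out either gene alone brought it to 693 nt, level with the other sites. With each exon counted once the median was 682 nt for the 20 exons of members and 387 nt for the 2269 exons of other genes. These counts were added after the data were seen, and the differences were not tested.

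The share of available motifs that was listed shows how uneven the exons were. In members with a site, 55 of 619 DRACH motifs in internal exons of at least 400 nt were listed, or 8.89% (6.89 to 11.4%), against only 4 of 1053 in shorter internal exons, or 0.380% (0.148 to 0.973%). The other coding genes with a site gave 10.2% (9.86 to 10.5%) and 0.957% (0.906 to 1.01%) for these classes. The interval for long internal exons thus held the rate of the other genes, among genes with a site. These exons held 27.8% of all exonic motifs of the members with a site, against 8.92% in the other genes. The 19 members without a site have a further 436 motifs of this class, which do not enter these rates. The coding part of the last exon had 14 of 80 motifs listed, or 17.5% (10.7 to 27.3%), and its 3′ UTR part had 4 of 440, or 0.909% (0.354 to 2.31%), against 12.4% (12.1 to 12.8%) and 4.97% (4.86 to 5.08%) in the other genes. The lower listed share in the 3′ UTR and the larger share of motifs in long internal exons both stand beside the high share of member sites in such exons, and their parts in it were not tested.

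**Figure D1:**
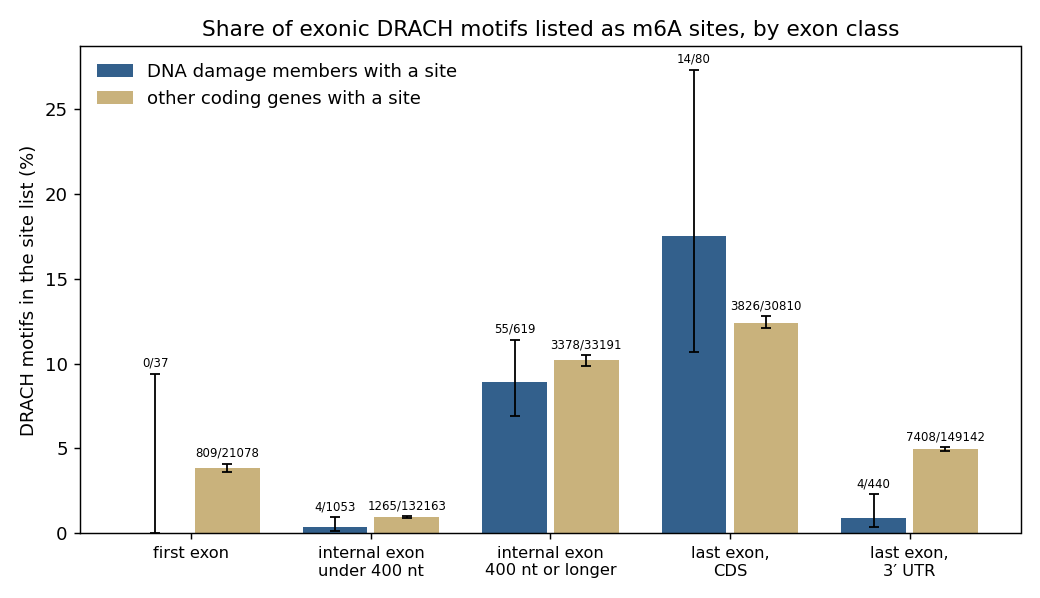
Share of DRACH motifs in exons of the chosen transcripts that are in the site list, in percent, for the 18 DNA damage members with a site and for other coding genes with a site, by exon class. Error bars are 95% Wilson intervals and the numbers above them are listed motifs over all motifs; internal exons of at least 400 nt had 8.89% of motifs listed in members and 10.2% in the other genes, and shorter ones 0.380% and 0.957%.

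Distance to the nearest exon junction is tied to exon length, as only a long exon has motifs far from both ends. The following shares are therefore not independent of those by exon class. Under 100 nt from a junction, 12 of 1128 motifs in internal exons of the members with a site were listed, or 1.06% (0.610 to 1.85%). From 100 nt up to 200 nt the share was 8.33% (4.45 to 15.1%), and at 200 nt or more it was 8.72% (6.42 to 11.7%). The other coding genes with a site ran in the same order, with 0.979%, 9.71% and 11.2%.

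In sequence, the members and the rest of the list had similar shares of DRACH, and the shares of single pentamers are given as a description. The DRACH motif was present at 84 of 89 member sites, or 94.4% (87.5 to 97.6%), and at 91.9% (91.5 to 92.3%) of the 19212 other sites. The most frequent pentamer was GGACA, at 20 member sites or 22.5% (15.0 to 32.2%), against 13.1% (12.6 to 13.6%) of the other sites. GAACA stood at 7 member sites or 7.87% (3.86 to 15.4%), against 3.23% (2.99 to 3.49%). Without the 6 sites that also lie in Trex1, a setting added after the data were seen, GAACA was at 6.02% (2.60 to 13.3%), an interval that held the share of the other sites, and GGACA at 21.7% (14.2 to 31.7%). Of the 17 pentamers found at member sites, only GGACA and AAACG, the latter with a lone site, had intervals that left out the share of the other sites under both counts, and the differences were not tested. GGACT, which led among the other sites with 19.4% (18.8 to 20.0%), stood at 13 member sites or 14.6% (8.74 to 23.4%), and its interval held the other sites' share. Scores were somewhat lower in the members, with a median of 0.698 against 0.734. In coding sequence the methylated A fell on codon position 2 at 37.7% (27.7 to 48.8%) of the 77 sites, against 49.1% (48.1 to 50.1%) elsewhere. Another site of the same gene lay within 100 nt of 61.8% (51.4 to 71.2%) of member sites and of 59.7% (59.0 to 60.4%) of the others. These shares were close but not tested, and the member share includes the 6 sites that also lie in Trex1.

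**Figure D2:**
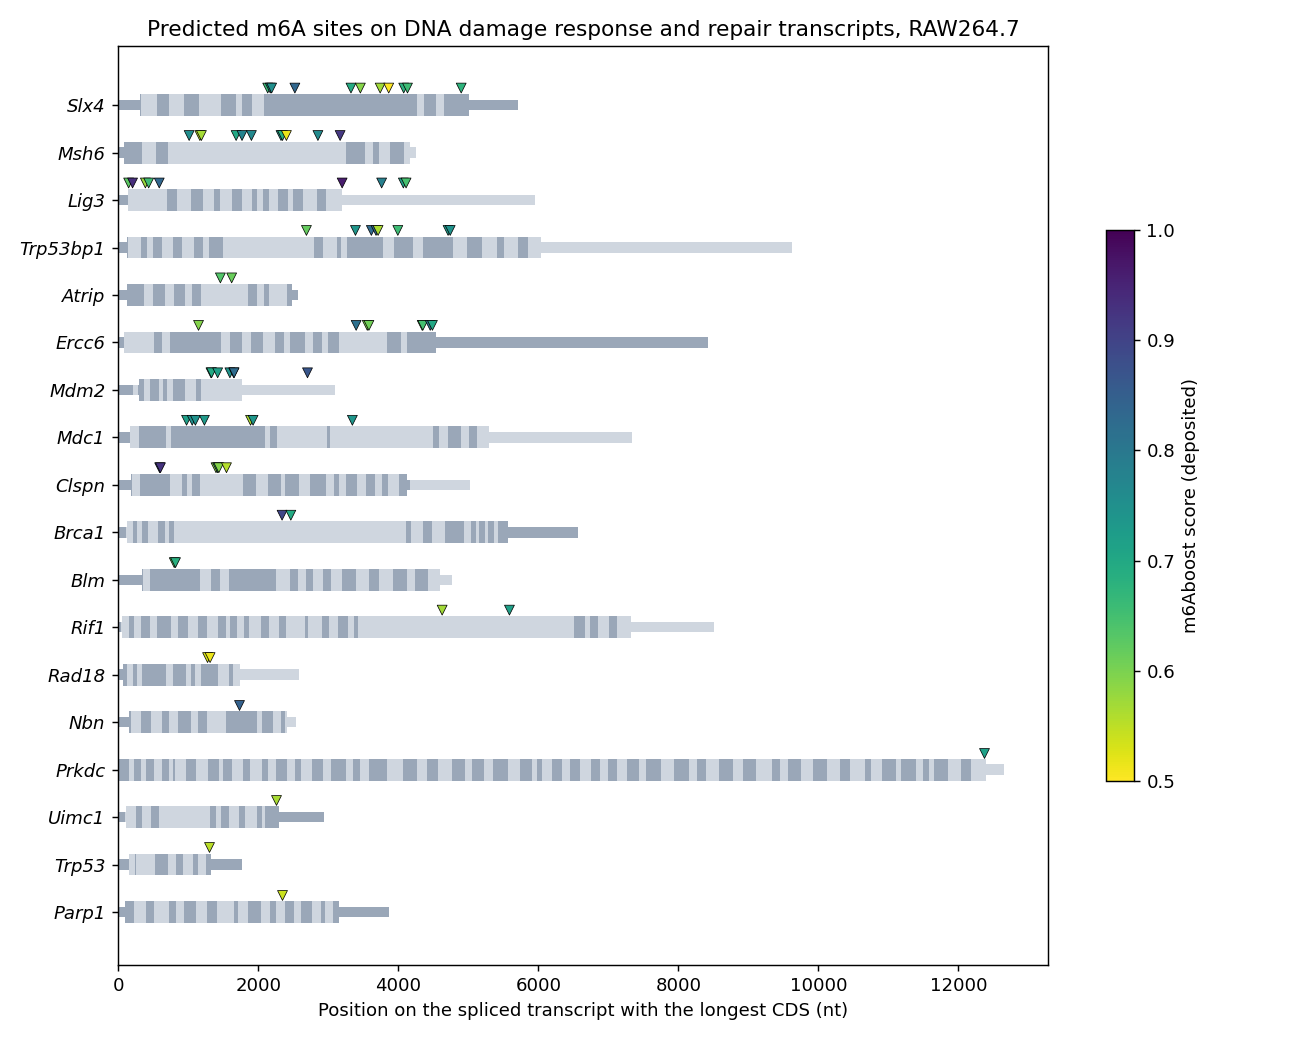
Predicted m6A sites (triangles, coloured by the deposited score from 0.5 to 1) on the spliced transcript with the longest CDS of each of the 18 members with a site, with position in nt from the transcript start. Alternating shades mark exons and the thicker bar marks the CDS; 82 of the 89 sites lie in an exon shown, and the runs in the large internal exons of Slx4, Msh6 and Mdc1 and in the last exon of Mdm2 stand out.

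Of the damage sensors and checkpoint kinases, 3 of 8 members (37.5%, beside 23.1% of all protein-coding genes) held 15 sites. Of these 15 sites, 6 counted for Atrip lie in Trex1, which is not a member. Atm, the kinase activated by double-strand breaks, had none, and its transcript of 64 exons and 9787 nt has 215 DRACH motifs with no internal exon above 372 nt. Atr, which answers single-stranded DNA at stalled forks, had none either, although exon 4 of its 47 exons measures 878 nt and has 9 motifs. Chek1, the effector kinase downstream of Atr, had no site among the 82 motifs of its 12 exons, which include a last exon of 1949 nt. Chek2, the effector kinase of Atm, and Topbp1, an activator of Atr, were also without a site.

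Prkdc, the catalytic subunit of DNA-PK, is the largest transcript of the members with a site, and its lone site sat at its end. The transcript has 86 exons and 12647 nt with 286 DRACH motifs, and the only listed motif, at chr16:15841946 with a score of 0.716, lay in the last exon 27 nt before the stop codon. None of its internal exons exceeds 255 nt.

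Clspn, the adaptor through which Atr activates Chek1, had 6 sites, all in its 2 internal exons of at least 400 nt. Exon 3, of 434 nt, held a pair 11 nt apart with scores of 0.863 and 0.926, and exon 8, of 611 nt, held 4 with scores between 0.556 and 0.674. The higher of the pair was 1 of the 4 member sites that reached a score of 0.9.

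Atrip, the partner that brings Atr to single-stranded DNA, shows a limit of counting by gene span. Its span held 8 sites, the most of the group, but only 2 of them lay in its transcript of 13 exons, both in exon 8, of 672 nt, at chr9:109065518 with a score of 0.636 and at chr9:109065357 with a score of 0.615. The other 6 lay beyond that transcript in Trex1, an exonuclease that degrades cytosolic DNA, whose gene is inside the annotated Atrip span at chr9:109057933-109059734 because some Atrip transcripts read through into it. Placed on Trex1, all 6 were in the CDS of exon 2, at chr9:109058785, chr9:109058766 and chr9:109058728 with scores of 0.681, 0.819 and 0.722, and at chr9:109058533, chr9:109058433 and chr9:109058344 with 0.725, 0.594 and 0.519. Whether they were read from Atrip or Trex1 RNA cannot be told apart in the list. Trex1 is not a member, and without these sites the module has 83 sites.

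Among the proteins that recognise breaks and build up repair chromatin, 5 of 7 members (71.4%, beside 23.1% of all protein-coding genes) held 19 sites. The complex of Mre11a, Rad50 and Nbn, which binds broken ends, was represented by Nbn alone. Nbn had 1 site, with a score of 0.847, in exon 11, which at 442 nt is its only internal exon above 400 nt, whereas the longest internal exons of Mre11a and Rad50 measure 217 and 238 nt.

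Mdc1, the scaffold that binds phosphorylated H2AX, had 7 sites, of which 6 lay in exon 5, of 1343 nt, and 1 in exon 10, of 1474 nt. The exons are close in length but not in listed motifs, with 20.0% of 25 motifs in exon 5 and 2.44% of 41 in exon 10. Scores ran from 0.561 to 0.752 with a median of 0.735.

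Trp53bp1, which restrains resection and favours end joining, had 8 sites over 4 of its 28 exons, with a median score of 0.732. Exon 17, of 505 nt, held 4 of them, at chr2:121216058 with a score of 0.737, at chr2:121215831 and chr2:121215764 with 0.829 each, and at chr2:121215735 with 0.563. Exon 21, of 431 nt, held a pair 30 nt apart at chr2:121207773 and chr2:121207743 with scores of 0.728 and 0.746. The largest internal exon, exon 12 of 1297 nt, held only 1, at chr2:121235684 with 0.618, so exon length alone did not order the counts within this gene. The remaining site, at chr2:121209292 with 0.658, was in exon 19, of 272 nt, and lay 60 nt from a junction.

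Rif1, the effector of Trp53bp1, had 2 sites 961 nt apart in exon 30, of 3090 nt, with scores of 0.569 and 0.718. This exon has 83 DRACH motifs, and 2.41% of them were listed. Uimc1, which brings Brca1 to ubiquitin chains at breaks, had a lone site with a score of 0.565 in the last exon, 33 nt before the stop codon, and none in its internal exon of 733 nt.

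In the BRCA group 1 of 5 members, Brca1, carried sites, a share of 20.0% that is near the 23.1% of all protein-coding genes. Brca1, a ubiquitin ligase subunit that promotes resection and recombination, has 23 exons, and both of its sites lay in its giant exon 10, of 3315 nt. They were 125 nt apart, at chr11:101525096 with a score of 0.895 in GAACT and at chr11:101524971 with a score of 0.696 in the non-DRACH motif GGACG. With 91 DRACH motifs in that exon, 1.10% were listed, which is low beside the long exons of Msh6 or Slx4.

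Brca2, a tumour suppressor of the homologous recombination pathway, had no site although it has the largest internal exon of all members. Exon 11 measures 4809 nt and has 137 DRACH motifs, and the whole transcript of 27 exons and 10724 nt has 262. Palb2, which links Brca1 to Brca2, Bard1, the ubiquitin ligase partner of Brca1, and the helicase Brip1 were without a site too, with longest internal exons of 1395, 938 and 324 nt. A large exon was therefore not enough for a listed site, and for these genes the part of RNA level was not tested.

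Of the Fanconi anaemia and crosslink repair genes, 1 of 5 had sites, also 20.0%. It was Slx4, which had the most of all members. Slx4 is the scaffold that holds structure-selective nucleases, and its transcript has 15 exons and 5706 nt. Exon 11, of 2186 nt, held 10 of its 12 sites over a stretch of 1996 nt, with 14.3% of 63 DRACH motifs listed. From 5′ to 3′, the sites in this exon were at chr16:3987123, chr16:3987087 and chr16:3987067 with scores of 0.661, 0.747 and 0.753, then at chr16:3986735 with 0.835. Further down they were at chr16:3985934 and chr16:3985800 with 0.694 and 0.591, and at chr16:3985517 with 0.571 and chr16:3985395 with a score just above 0.5. The exon ended with a pair at chr16:3985181 and chr16:3985127 with 0.681 and 0.658. The sites thus spanned nearly the whole exon, with the highest score in its upstream part.

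The other 2 Slx4 sites lay outside that exon. At chr16:3979930 a site with a score of 0.677 was in the CDS of the last exon, 107 nt before the stop codon. At chr16:4001278 a site with a score of 0.802 was in an intron of the chosen transcript but in an exon of 2 of the 8 annotated Slx4 transcripts. Fanca, a subunit of the core complex, and Fancd2 and Fanci, the pair it ubiquitinates, had no site and no internal exon above 191 nt. Fancm, the translocase that anchors the core complex at forks, had none despite an exon 14 of 1864 nt with 43 motifs.

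In the p53 axis, 2 of 3 members had sites, a share of 66.7% of very few genes beside 23.1% of all protein-coding genes, and they differed in number and place. Trp53 itself, the transcription factor that halts the cycle or starts apoptosis, had 1 site among the 28 DRACH motifs of its 11 exons. It was at chr11:69591396, with a low score of 0.552, in the last exon 33 nt before the stop codon. Mdm2, the ubiquitin ligase that degrades p53 and is itself a p53 target, had 7 sites with a median score of 0.741, and all of them were in the last of its 12 exons. Mdm4, its relative, had none.

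The Mdm2 sites fell into tight groups. In coding sequence they were at chr10:117690648 and chr10:117690640 with scores of 0.684 and 0.698, at chr10:117690553 with 0.718, at chr10:117690378 with 0.741, and at chr10:117690323 and chr10:117690318 with 0.765 and 0.825. The seventh, at chr10:117689270, lay in the 3′ UTR 942 nt after the start of the stop codon and had the highest score, 0.866. Scores rose along the transcript from the first site to the last. Of the 41 DRACH motifs of this exon 17.1% were listed.

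Among the RecQ helicases, 1 of 2 had sites, again beside 23.1% of all protein-coding genes. Blm, which dissolves recombination intermediates, had 2 sites, while Wrn had none. Blm has 22 exons, and its sites lay 18 nt apart in exon 3, of 716 nt, with scores of 0.616 and 0.684, both in TGACT.

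The group of excision, mismatch and single-strand break repair held the most sites, with 29 in 4 of 5 members (80.0%, beside 23.1% of all protein-coding genes). Msh6, a mismatch recognition protein, has 10 exons and had 11 sites, all in exon 4, of 2536 nt, where 17.7% of 62 DRACH motifs were listed. The first of them were at chr17:87984745 with a score of 0.754, chr17:87984898 with 0.547 and chr17:87984920 with 0.568. The middle ones were at chr17:87985416 with 0.70, chr17:87985500 with 0.777 and chr17:87985634 with 0.765. A close group followed at chr17:87986057, chr17:87986078 and chr17:87986134 with 0.742, 0.685 and 0.514. The last ones, at chr17:87986584 and chr17:87986901, had scores of 0.762 and 0.918. Every Msh6 site was at a DRACH motif, and its last exon, of 169 nt, had no site.

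Lig3, the ligase that seals single-strand breaks with Xrcc1 and also serves mitochondrial DNA, had 9 sites split between both ends of its transcript of 20 exons. Exon 2, of 554 nt, held 5, at chr11:82783353, chr11:82783409, chr11:82783592, chr11:82783639 and chr11:82783790 with scores of 0.626, 0.934, 0.575, 0.655 and 0.835. With 45.5% of 11 DRACH motifs listed, this was the densest exon among those of members with more than 3 motifs. The first of these sites lay only 7 nt from a junction.

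The last exon of Lig3 held the other 4, all in the 3′ UTR, at chr11:82801516, chr11:82802080, chr11:82802390 and chr11:82802429 with scores of 0.962, 0.785, 0.717 and 0.647. The first had the highest score of all member sites and lay 4 nt after the first base of the stop codon TAG at chr11:82801512-82801514, so its GGACT motif begins with the last base of the stop codon.

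Ercc6, which couples repair to stalled RNA polymerase, has 21 exons and had 8 sites with a median score of 0.636, all in the CDS. Exon 18, of 693 nt, held 3, exon 5, of 730 nt, held 1, and the coding part of the last exon held 4, the closest of them 45 nt before the stop codon. The long 3′ UTR in that last exon of 4305 nt had none. Xpc, the damage sensor of global nucleotide excision repair, had no site despite an exon 9 of 873 nt with 20 motifs.

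Parp1, which marks strand breaks with poly(ADP-ribose), had 1 site, at chr1:180594116 with a score of 0.541, in TGACT. It lay in exon 16 of 23, which is only 123 nt long, and 49 nt from a junction. This was the shortest internal exon with a site among the members.

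The last group, of end joining and damage tolerance, also had sites in 1 of 2 members (50.0%, beside 23.1% of all protein-coding genes), with 2 sites in Rad18 and none in Polq. Rad18, the ubiquitin ligase that opens translesion synthesis by modifying PCNA, has 14 exons, and its sites lay 36 nt apart in exon 11, of 243 nt, with the low scores of 0.530 and 0.514. Polq, the polymerase of microhomology-mediated end joining, resembled Brca2 in having a large exon without a site, exon 16 of 2981 nt with 89 motifs.

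Windows of 21 nt show the sites on which these descriptions rest, read 5′ to 3′ on the strand of the gene from GRCm38, with the pentamer around the methylated A in capitals. The following are the highest-scoring sites of the 5 members with most sites, then those of Trp53 and Mdm2. The Slx4 window is at chr16:3986725-3986745 on the minus strand in the CDS, that of Msh6 at chr17:87986891-87986911 on the plus strand in the CDS, and that of Lig3 at chr11:82801506-82801526 on the plus strand across the stop codon. The Trp53bp1 window is at chr2:121215821-121215841 on the minus strand in the CDS, and the window of the Atrip span, in the CDS of Trex1, is at chr9:109058756-109058776 on the minus strand. Those of Trp53 and Mdm2 are at chr11:69591386-69591406 on the plus strand in the CDS and at chr10:117689260-117689280 on the minus strand in the 3′ UTR.
Slx4: aacaagaaGGACAttccactc
Msh6: tccttaaaGGACTgcatgcgg
Lig3: ccctgctaGGACTttggtctt
Trp53bp1: cgccccagAAACTgtctcggc
Atrip span (Trex1): tttctcagGGACAtccacctc
Trp53: ccataaaaAAACAatggtcaa
Mdm2: attcagaaAGACTgaatcaga

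Non-DRACH motifs were found at 5 member sites, 1 each in Trp53bp1, Mdc1, Brca1, Slx4 and Lig3, and all 5 kept the AC that starts at the methylated base. In 4 of them a G closed the motif in place of A, C or T. The 3 with the highest scores are shown, at chr2:121216048-121216068 on the minus strand with a score of 0.737, at chr17:35848478-35848498 on the plus strand with 0.735, and at chr11:101524961-101524981 on the minus strand with 0.696, all in the CDS.
Trp53bp1: cctgtcatGGACGatgctgct
Mdc1: gcaggaaaGTACTcttgaggt
Brca1: tcagtcctGGACGctcacact

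The pair in Rad18 was singled out after its values were seen, because its windows are near copies of each other. They are at chr6:112649732-112649752 and chr6:112649696-112649716 on the minus strand in the CDS and have the same base at 19 of 21 positions.
Rad18 upstream: agcgatgaGAACAgatgaacc
Rad18 downstream: gtcgatgaGAACAgatgaacc

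Denser runs of sites are clearest in their own sequence, and these stretches were also chosen after the data were seen, as CDS runs of 3 sites with gaps of at most 100 nt. There were 7 such runs, and 4 from different genes are shown. The runs not shown were in Mdc1 exon 5 and Trp53bp1 exon 17, each with 3 of 6 DRACH motifs listed, and upstream in Mdm2 exon 12, with 3 of 4. The Slx4 stretch, at chr16:3987057-3987133 on the minus strand in exon 11, has 5 DRACH motifs of which 3 were listed. The Msh6 stretch, at chr17:87986047-87986144 on the plus strand in exon 4, has 3, all listed. The Mdm2 stretch, at chr10:117690308-117690388 on the minus strand in exon 12, also has 3, all listed, and its last pair of pentamers are direct neighbours. In Clspn, at chr4:126566190-126566250 on the plus strand in exon 8, 3 of 4 motifs were listed.
Slx4 exon 11: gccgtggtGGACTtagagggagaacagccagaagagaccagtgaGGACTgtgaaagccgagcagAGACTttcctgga
Msh6 exon 4: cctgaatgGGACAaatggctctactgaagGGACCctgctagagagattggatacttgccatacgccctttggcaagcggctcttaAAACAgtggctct
Mdm2 exon 12: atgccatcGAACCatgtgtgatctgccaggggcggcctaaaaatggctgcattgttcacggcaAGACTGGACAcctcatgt
Clspn exon 8: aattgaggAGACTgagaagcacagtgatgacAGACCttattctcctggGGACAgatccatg

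The wider list of 117 other repair and damage response genes had 46 with a site, or 39.3% (30.9 to 48.4%), with 145 sites in all. The share lay between that of the members and that of all protein-coding genes, and its interval overlapped that of the members. Of its exonic sites 27.6% (21 to 35.4%) were in internal exons of at least 400 nt and 57.9% (49.8 to 65.7%) in the last exon. The shares of its sublists rest on few genes each and are to be read beside the 23.1% of all protein-coding genes. Nucleotide excision repair had 5 of 11 genes with a site (45.5%), led by the helicase Ercc2 with 11 sites, all in the 3′ UTR. Base excision and single-strand break repair had 6 of 21 (28.6%), led by the flap endonuclease Fen1 with 8, and homologous recombination had 8 of 21 (38.1%), led by the topoisomerase Top3a with 5.

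Fanconi anaemia genes had a site in 4 of 10 (40.0%), led by Faap100 with 7, and mismatch repair genes in 2 of 6 (33.3%), led by Pms2 with 4. Non-homologous end joining had 3 of 9 (33.3%), and none of its genes exceeded the 2 sites of Xrcc6, a subunit of Ku. Translesion synthesis had 3 of 9 (33.3%), led by the polymerase Polh with 5. Checkpoint signalling and chromatin ubiquitin genes had 8 of 16 (50.0%), where the histone gene H2afx, Rnf8 and the phosphatase Cdc25a had 5 each, and all 5 of Rnf8 lay in the span of another annotated gene as well. Targets and regulators of p53 had 5 of 7 (71.4%), led by the phosphatase Ppm1d with 6, and the further helicases and SMC genes had 2 of 7 (28.6%), led by Recql5 with 4. Base excision repair and the helicases were thus nearest to the share of all protein-coding genes, and no difference from it was tested.

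The cell line was checked against marker genes. Of 10 macrophage markers 6 had a site, namely Csf1r, Spi1, Ptprc, Lyz2, Mpeg1 and Cd14, beside 23.1% of all protein-coding genes, while Adgre1, Itgam, Cd68 and Fcgr3 had none. Of 22 markers of embryonic stem cells, heart muscle, hepatocytes, epithelium and lymphocytes 0 had a site. A site shows that the RNA was present, and the absence of a site shows nothing about it.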

How the data were processed

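miCLIP2 data of poly(A)+ RNA from 3 untreated RAW264.7 replicates were used as 1 pooled list. Per the methods of the study and the processing notes of the submitters, reads were mapped with STAR 2.7.3a to GRCm38.p6 (mm10) with GENCODE M23, handled with SAMtools 1.9 and bedtools 2.27.1, and freed of duplicates with UMI-tools 1.0.0. Peaks were called with PureCLIP and kept when found in at least 2 replicates. The deposited value is the m6Aboost score that the authors computed for each peak at A, and sites above 0.5 are listed. Such a list depends on the RNA level, since weakly expressed transcripts give few peaks, and the model used the transcript region and sequence as inputs, so region and motif shares partly describe the model.

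BED starts were read as 0-based, and positions are given 1-based. Gene spans, transcripts and regions came from GENCODE M21, and motifs from the 5 genomic bases centred on the site in the GRCm38 RefSeq assembly. Where several transcripts existed, the one with the longest CDS was used. Other sites were placed on the coding gene in whose chosen transcript they were exonic, or else on the longest gene, and 121 were in no coding gene. Distances to the stop codon count from its first base along the spliced transcript. Intervals are 95% Wilson intervals. No test was made. Site placement was checked with random exon positions on real transcripts of the annotation, and the coverage of the Wilson interval with simulated counts. Python 3.11.15, NumPy 2.4.6, SciPy 1.17.1, pysam 0.24.0 and matplotlib 3.10.9 were used.

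The members and lists were chosen with earlier results of these data known. All 38 names were accounted for, and the 5 members with most sites (ties to the higher median score), Brca1, Brca2, Atm, Atr, Trp53, Mdm2, Trp53bp1, Chek1 and Parp1 were described site by site. Windows were printed for the site with the highest score of the 5, of Trp53 and of Mdm2, and for up to 3 non-DRACH sites. Alternatives were minimum scores of 0.7 and 0.9, collapsing sites within 5 nt, sites in no other gene, other transcripts, other motif definitions and windows, equal weights and leaving out the member with most sites.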

Additional observations from a re-analysis of the deposited data

How the results depend on the processing

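Of 69 alternative values for 12 results, 49 stayed within 1.5 times a count or within the 95% interval of a share or median, and 20 did not. No paired analysis was possible because the site list used here joins the replicates of a lone condition, and for the same reason no replicate was left out. With a score of at least 0.7 there were 44 member sites with a median score of 0.758. With a score of at least 0.9 only 4 sites in 3 members and 10 pathway genes were left, by construction fewer, with a median score of 0.930, 0.235 sites per kb, a DRACH share of 100%, a CDS share of 75.0%, a 3′ UTR share of 25.0% and 25.0% within 200 nt of the stop codon, so shares at this score rest on 4 sites. The motif share was 100% for AC, which is a looser motif, and 0% with the start read as 1-based, which changes the base that is read. The CDS share was 65.2% on the transcript with the longest span among those passing the support filter of the authors. It was 92.8% for sites in no other gene's span, a setting chosen after seeing the data that leaves out the Trex1 sites. The 3′ UTR share was 13.5% on the longest spliced transcript, and the cause of both transcript effects was not tested. A stop codon window of 100 nt held 7.32% and an exon limit of 1000 nt held 40.2%, by construction less. With each member weighted equally, 60.2% of exonic sites were in internal exons of at least 400 nt. Some values within a wide interval still moved by over 1.5 times. The median of sites per member was 2 for sites in no other gene's span and 1 at a score of at least 0.9, the 3′ UTR share was 9.09% at a score of at least 0.7 and 3.26% with equal weights, the share near the stop codon was 22.9% with equal weights, and at a score of at least 0.7 there were 0.459 sites per kb. Counted per 100 DRACH motifs, another unit, the median was 3.27 sites. The list gives no depth, so the precision of a single site is unknown.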
